A study of Mus musculus with 13 samples.

Results

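The Sestrins and mTORC1 regulators described here are 10 genes of the 24417 named genes counted in each library. They were chosen by name, with earlier results of these libraries known (the levels and fold changes between the groups below among them), and no measured threshold is recorded. The list holds *Sesn1*, *Sesn2*, *Sesn3*, *Ddit4*, *Depdc5*, *Tsc1*, *Tsc2*, *Rheb*, *Rptor* and *Mtor*. All 10 were found in both count tables, and all 10 passed the filter on low counts in both experiments.

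RNA was sequenced from sorted mouse CD4 T cells of pooled spleen and lymph node (strain C57BL/6) in 2 experiments with 13 libraries. In the male experiment, all mice received 4-OHT (4-hydroxytamoxifen) on postnatal day 14 and were analyzed at day 21. Control Treg cells (regulatory T cells, 3 libraries) came from healthy Foxp3DTR-GFP/y Cd4creERT2 mice, and rescued Treg cells (3 libraries) from Foxp3LSL/y Cd4creERT2 mice, which had disease. In the latter, 4-OHT switches on a Cre recombinase, driven in CD4-expressing cells, which cuts a STOP cassette out of *Foxp3*. Treg “wannabes” (2 libraries) came from sick Foxp3LSL/y Cd4wt mice, which lack the recombinase, so that cells that turn on the *Foxp3* locus make Thy1.1 and no Foxp3 protein. In the female experiment, mice received 4 doses of DT (diphtheria toxin), given 7, 5, 3 and 1 days before the cells were taken. Their labels give an age of 9 to 11 weeks, and the study states a lower age range for the mice treated. Resting wannabes (3 libraries) came from Foxp3LSL/WT Cd4wt females, which keep normal Treg cells from the other allele. Activated wannabes (2 libraries) came from Foxp3LSL/DTR Cd4wt females, whose remaining Treg cells carry the toxin receptor and are removed by DT. Per the study's methods, the female groups held as many mice as libraries and the male libraries were biological replicates, with no number of mice given. Sex, age, treatment and sequencing table all differ between the experiments, so levels from the 2 are given side by side, without a test of one against the other.

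mTORC1 is the kinase complex of mTOR and Raptor that turns on protein synthesis and growth when nutrients and growth signals are present. Growth factor signals reach it by way of the TSC complex, which holds back the GTPase Rheb, the direct activator of mTORC1. Amino acids reach it by way of the Rag GTPases, on which GATOR1 acts as a brake, GATOR2 opposes GATOR1, and Sestrins bind GATOR2 when leucine is scarce. In T cells this pathway is known to couple antigen and cytokine signals to growth, and Treg cells need it for their suppressive activity.

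Between 25556783 and 36659638 reads (median 31462226) were counted on named genes per library, and no pair of replicates matched within counting noise. *Foxp3* stood at 211 ± 42.6 CPM (reads of a gene relative to the library total, scaled by edgeR's TMM method; SD, n = 3) in control Treg cells and at 961 ± 130 CPM (SD, n = 3) in rescued Treg cells. In the wannabes, whose locus is still transcribed, it stood at 92.0 ± 11.0 CPM (SD, n = 2) in males and at 70.8 ± 3.97 (SD, n = 3) and 55.5 ± 3.81 CPM (SD, n = 2) in resting and activated females. The 4 T cell markers in the tables summed to between 2214 and 3800 CPM in every library. Of these, *Cd4* stood at 411 ± 23.6 CPM in control and 485 ± 36.2 CPM in rescued Treg cells (SD, n = 3 each). It stood at 1169 ± 286 CPM in male wannabes (SD, n = 2). The male wannabes lack the Cd4creERT2 allele of both Treg groups, so comparisons with them also differ at *Cd4*. What this adds to those comparisons was not tested. Markers of NK cells and of myeloid cells summed to at most 6.83 and 10.8 CPM, with *Klra8* at or under 3 counts in all 5 groups and *Ncr1* in 4 of them. Those of B cells summed to between 32.0 and 44.0 CPM over the male libraries, with *Ms4a1* at or under 3 counts in each male group. The 2 CD8 genes summed to between 9.72 and 27.8 CPM over all libraries. The male wannabe pair and the rescued Treg replicates 1 and 3 differed most (chi-square per degree of freedom 144 and 143, against 13.2 to 79.5 for the other pairs), and each call of the 10 genes that turns on a library is given with and without it.

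The changes of *Sesn1* were the largest among the 10 genes, and *Sesn3* passed the threshold in the same direction in 2 of the 4 comparisons. The 250 bases before a RefSeq start site of each (GRCm38.p6, both on the plus strand) are shown because these windows overlap no annotated exon. *Sesn1* has a second window in RefSeq, at chr10:41810324-41810573, which lies wholly within annotated exons and is not shown. The *Sesn1* window is chr10:41887189-41887438 and the *Sesn3* window chr9:14276051-14276300. Capitals mark the letters CCAAT on either strand (ATTGG on the printed one).
Sesn1: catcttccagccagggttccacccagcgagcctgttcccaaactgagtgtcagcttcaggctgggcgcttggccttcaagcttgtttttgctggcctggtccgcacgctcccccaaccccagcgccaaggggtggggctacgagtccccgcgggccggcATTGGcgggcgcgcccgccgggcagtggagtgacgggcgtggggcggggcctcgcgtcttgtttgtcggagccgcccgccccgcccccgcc
Sesn3: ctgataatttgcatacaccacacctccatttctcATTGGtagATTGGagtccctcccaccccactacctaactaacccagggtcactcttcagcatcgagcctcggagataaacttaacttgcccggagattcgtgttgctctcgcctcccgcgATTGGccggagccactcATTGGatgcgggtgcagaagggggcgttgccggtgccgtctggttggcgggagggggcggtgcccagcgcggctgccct
The letters CCAAT occurred 1 time in the *Sesn1* window and 4 times in the *Sesn3* window, and they occurred in 33.8% of 32851 RefSeq windows of the same length. They also occurred 4 times in the *Mtor* window, 2 times each in those of *Sesn2* and *Ddit4* and 1 time in the *Sesn1* window not shown. The windows of *Depdc5*, *Tsc1*, *Tsc2*, *Rheb* and *Rptor* held none. All 10 genes had a RefSeq window. The core letters of a FOXO site, TGTTTAC, were searched on both strands and were found in no window of the 10 genes, against 3.17% of all windows. CACGTG, the core of the site that TFEB and TFE3 bind, was found among the 10 genes in the *Rheb* window only, which lies wholly within annotated exons, against 6.02% of all windows.

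**Figure D1:**
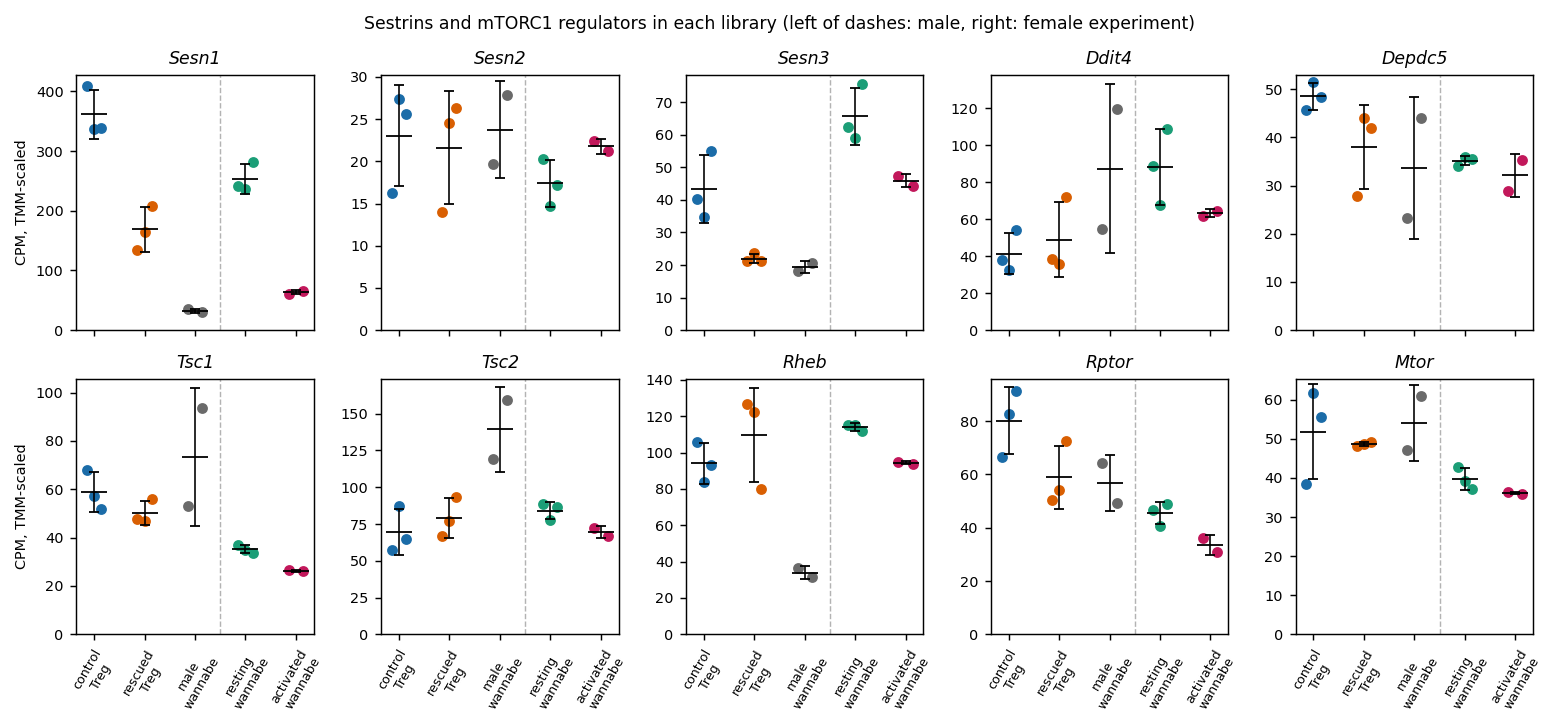
CPM of each of the 10 genes (linear axis from 0, a different scale in each panel) in the 13 libraries. Points are libraries, horizontal bars the group mean and whiskers 1 SD, with the male groups left of the dashed line. *Sesn1* fell from 361 CPM in control Treg cells to 32.5 CPM in male wannabes and from 253 CPM in resting to 63.4 CPM in activated wannabes, while the *Sesn2* groups overlapped among the males.

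*Sesn1*, which encodes a Sestrin known as a target of p53 and FOXO factors, was at its highest in control Treg cells and at its lowest in male wannabes. Its level was 336, 339 and 409 CPM in the control Treg libraries, 134, 164 and 208 CPM in the rescued Treg libraries and 30.3 and 34.7 CPM in the male wannabes. These 3 groups did not overlap. It was 236, 242 and 282 CPM in resting wannabes and 61.0 and 65.7 CPM in activated wannabes, again without overlap. Set side by side across the separately normalized experiments, the male and the activated wannabes were the 2 lowest groups, and the resting wannabes lay above the rescued Treg cells.

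By the quasi-likelihood test of edgeR, adjusted over all genes tested after Benjamini and Hochberg, *Sesn1* was 2.14-fold lower in rescued than in control Treg cells (log2 fold change -1.10, SE 0.18, adjusted p = 0.0116). It was the only one of the 10 genes past the adjusted threshold of 0.05 in that comparison, where 2.30% of all 14925 genes passed (1.43% higher and 0.864% lower). This call was lost without control Treg replicate 1 (log2 fold change -1.0, adjusted p = 0.0638) and without rescued Treg replicate 2 (-1.06, adjusted p = 0.0536). Since the genes were listed with such results known, this and the following adjusted p-values describe the libraries and are not independent evidence. *Sesn1* was also 11.1-fold higher in control Treg cells than in male wannabes (log2 fold change 3.48, SE 0.23, adjusted p = 5.17e-05) and 5.19-fold higher in rescued Treg cells than in male wannabes (2.38, SE 0.22, adjusted p = 0.000233). These 3 comparisons share libraries. In females it was 4.00-fold lower in activated than in resting wannabes (log2 fold change -2.0, SE 0.11, adjusted p = 0.000273). The comparisons with male wannabes and between the female groups held with each library left out in turn, with adjusted p-values of at most 0.00869. In bulk libraries, fewer cells that use a gene and less RNA of it per cell cannot be told apart.

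*Sesn3*, whose product acts on the same GATOR2 complex, followed *Sesn1* in part. Its level was 34.9, 40.2 and 55.0 CPM in control Treg cells, 21.1, 21.2 and 23.6 CPM in rescued Treg cells and 18.2 and 20.8 CPM in male wannabes. Every control Treg library lay above every other male library, and the rescued Treg cells and the male wannabes lay within a few CPM of each other. *Sesn3* was 2.22-fold higher in control Treg cells than in male wannabes (log2 fold change 1.15, SE 0.27, edgeR adjusted p = 0.0151), a call lost without control Treg replicate 3 (0.95, adjusted p = 0.0563) and without male wannabe replicate 1 (1.06, adjusted p = 0.0642). Between rescued Treg cells and male wannabes its log2 fold change was 0.17 (SE 0.26, adjusted p = 0.715). Between rescued and control Treg cells it was -0.98 (SE 0.23, adjusted p = 0.0587), just short of the threshold in edgeR and past it in DESeq2 (-0.96, adjusted p = 0.00177). The edgeR value also passed with no filter (adjusted p = 0.0399), in a fit of only those 2 groups (0.0418) and without male wannabe replicate 1 (0.0401) or 2 (0.0412). In females, *Sesn3* stood at 59.0, 62.4 and 75.6 CPM in resting and at 44.4 and 47.3 CPM in activated wannabes, which did not overlap. It fell by 0.52 on the log2 scale (SE 0.13, adjusted p = 0.0330) in activated wannabes, and the call was lost without resting wannabe replicate 1 (adjusted p = 0.0508), without either activated wannabe library (0.148 and 0.197) and with the replicate number as a block (0.0714).

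*Sesn2*, the Sestrin for which leucine binding is best described and a known target of the stress factor ATF4, did not pass the threshold in any comparison. It ranged from 13.9 to 27.8 CPM over the 8 male libraries and from 14.7 to 22.4 CPM over the 5 female libraries. All 3 male groups overlapped. Its male log2 fold changes lay between -0.14 and -0.04, with SEs of 0.31 to 0.35. The 2 activated wannabe libraries, at 21.2 and 22.4 CPM, lay above the resting ones, at 14.7, 17.2 and 20.3 CPM (log2 fold change 0.32, SE 0.16, adjusted p = 0.197).

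The make-up of the Sestrin transcripts also differed between groups. Per kilobase of exon, the 3 genes summed to 100 ± 8.57 CPM per kb in control Treg cells, 50.0 ± 11.2 in rescued Treg cells and 73.0 ± 7.00 in resting wannabes (SD, n = 3 each). The sums were 16.3 ± 0.995 CPM per kb in male wannabes and 25.2 ± 0.441 in activated wannabes (SD, n = 2 each). *Sesn1* made up 90.4% ± 2.59 of the sum in control and 84.8% ± 1.78 in rescued Treg cells and 87.2% ± 1.09 in resting wannabes (SD, n = 3 each). In male wannabes its share was 44.8% and 55.9%, and in activated wannabes 61.6% and 64.7%. *Sesn2* held 36.4% and 47.2% of the sum in male wannabes and 23.9% and 25.9% in activated wannabes, against 4.24% to 14.2% over the other 9 libraries. In male wannabe replicate 2, *Sesn2* exceeded *Sesn1* per kilobase. These shares rest on the union of all annotated exons, which is 15269 bases long for *Sesn3*. With the mean length of protein-coding transcripts, 4217.3 bases, the *Sesn1* share was 86.8% in control Treg cells and 53.6% in activated wannabes, and in male wannabe replicate 2 *Sesn1* (9.45 CPM per kb) then exceeded *Sesn2* (8.00).

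**Figure D2:**
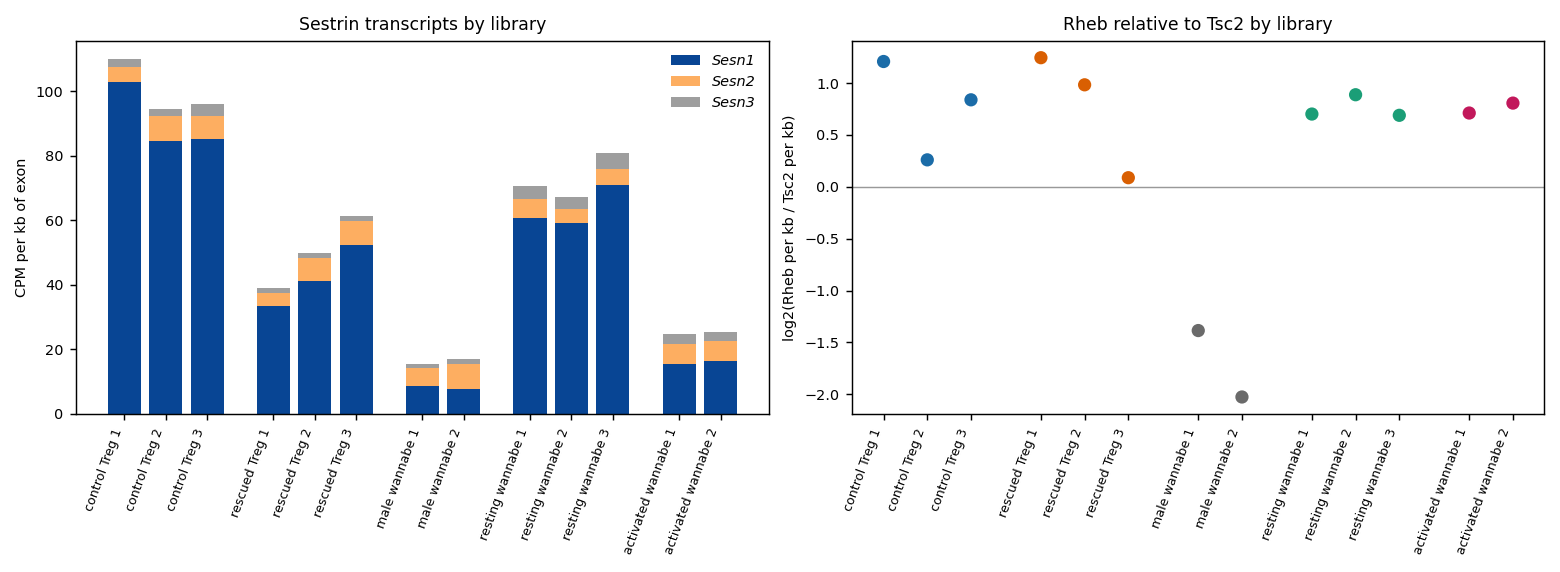
Left, CPM per kb of exon of *Sesn1*, *Sesn2* and *Sesn3*, stacked, in each of the 13 libraries (linear axis from 0). Right, log2 of *Rheb* over *Tsc2*, both per kb, in the same libraries. *Sesn1* takes up most of each bar except in male wannabe replicate 2, and *Rheb* exceeded *Tsc2* in 11 libraries but not in the 2 male wannabe libraries.

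*Ddit4* encodes REDD1, an inhibitor that acts through the TSC complex and is induced by hypoxia, glucocorticoids and other stresses. It did not pass the threshold in any comparison in edgeR with all libraries, the filter and no replicate block, and its replicates were scattered. It stood at 32.4, 38.0 and 54.1 CPM in control Treg cells, 36.0, 38.5 and 72.4 CPM in rescued Treg cells and 55.0 and 120 CPM in male wannabes. The male wannabe libraries lay above all control Treg libraries (log2 fold change of control Treg cells -1.07, SE 0.38, edgeR adjusted p = 0.0779), and DESeq2 called this difference (adjusted p = 0.0239), as did edgeR with no filter (0.0307) and with the replicate number as a block (0.0177). Without male wannabe replicate 1 the edgeR value passed too (-1.53, adjusted p = 0.0222), as did that of rescued Treg cells against male wannabes (-1.29, adjusted p = 0.0479). With all libraries the latter was -0.84 (SE 0.38, adjusted p = 0.179; with the block -1.12, adjusted p = 0.0411), and without male wannabe replicate 2 it was -0.21. In females *Ddit4* stood at 67.7, 88.7 and 109 CPM in resting and at 61.7 and 64.7 CPM in activated wannabes (log2 fold change -0.48, SE 0.19, adjusted p = 0.116). These 2 groups did not overlap, and without resting wannabe replicate 2 the value passed (-0.64, adjusted p = 0.0198).

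Genes that answer to handling and stress moved in the same comparisons. The 10 genes of that list (*Fos*, *Fosb*, *Jun*, *Junb*, *Egr1*, *Atf3*, *Dusp1*, *Ier2*, *Hspa1a* and *Hspa1b*) summed to between 4774 and 4926 CPM in resting and between 2482 and 3139 CPM in activated wannabes, and 7 of the 10 passed the threshold lower in the latter (11.2% of all genes did). In males they summed to 1075 to 1723 CPM in control Treg cells, 1107 to 2107 in rescued Treg cells and 620 to 923 in male wannabes, and 6 of the 10 passed higher in control Treg cells (9.92% of all genes) and 4 in rescued Treg cells (10.0%) than in male wannabes. Between rescued and control Treg cells 1 passed, *Hspa1a*, which was lower (0.864% of all genes). Their part in the changes of *Sesn1*, *Sesn3* and *Ddit4* was not tested. Among markers of other cells, the 4 B cell genes in the tables summed to between 9.80 and 12.1 CPM in resting and between 22.4 and 24.6 CPM in activated wannabes, and 1 of the 2 tested, *Cd79b*, was higher. Of the 3 plasma cell genes, *Sdc1* was lower in activated wannabes (0.416 ± 0.0423 CPM, SD, n = 2, against 6.14 ± 1.82 CPM, SD, n = 3), and *Xbp1*, which T cells also express, was higher in control and in rescued Treg cells than in male wannabes. In control Treg cells against male wannabes the myeloid gene *Itgam* was higher (7.92 ± 4.02 CPM, SD, n = 3, against 0.486 ± 0.566, SD, n = 2), and the NK cell gene *Klrb1c* (0.787 ± 0.475 against 5.72 ± 1.57 CPM) and the erythroid gene *Hba-a1* (0.515 ± 0.263 against 4.66 ± 4.35 CPM) were lower. Among the other myeloid genes, *Lyz2* stood at 0.245 ± 0.215 against 0.272 ± 0.385 CPM and *Fcgr3* at 0.218 ± 0.378 against 0.0859 ± 0.122 CPM. Neither passed, and *Csf1r* and *Cd14* were at or under 3 counts in both groups. The other erythroid genes did not pass, *Hbb-bs* at 0.631 ± 0.875 against 2.43 ± 2.36 CPM and *Alas2* at 2.96 ± 1.29 against 0.525 ± 0.743 CPM. Their part in the changes of the 10 genes was not tested.

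The TSC complex is the brake on Rheb, and *Tsc2* encodes the subunit with the GTPase-activating domain. *Tsc2* stood at 57.1, 64.8 and 86.9 CPM in control Treg cells, 66.7, 77.0 and 93.7 CPM in rescued Treg cells and 119 and 160 CPM in male wannabes. Both male wannabe libraries lay above all 6 Treg libraries. *Tsc2* was 2.00-fold lower in control Treg cells than in male wannabes (log2 fold change -1.0, SE 0.23, edgeR adjusted p = 0.0147) and 1.76-fold lower in rescued Treg cells than in male wannabes (-0.82, SE 0.23, adjusted p = 0.0392). The first call was lost without control Treg replicate 1 (adjusted p = 0.0589), control Treg replicate 3 (0.0552) or male wannabe replicate 2 (0.0710). The second was lost without control Treg replicate 3 (0.0608), male wannabe replicate 2 (0.171), rescued Treg replicate 1 (0.113) or rescued Treg replicate 2 (0.134), and in a fit of only the groups compared (0.0592). In females *Tsc2* stood at 77.6, 86.3 and 88.3 CPM in resting and 66.9 and 72.3 CPM in activated wannabes (log2 fold change -0.27, SE 0.10, adjusted p = 0.0882). Without resting wannabe replicate 2 this passed (-0.33, adjusted p = 0.0436). *Tsc2* shares 693 exonic bases, 7.20% of its exons, with *Pkd1* on the opposite strand, and the sources used here do not say whether counting used strand, so reads from that stretch cannot be told apart.

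*Tsc1*, which encodes the partner that stabilizes TSC2, did not pass the threshold among the male groups. It stood at 51.8 to 67.9 CPM in control Treg cells and 46.9 to 55.9 CPM in rescued Treg cells, and the male wannabes were far apart at 53.2 and 93.6 CPM. The male log2 fold changes lay between -0.55 and -0.23, with SEs of 0.23 to 0.25. Without male wannabe replicate 1, that of rescued Treg cells against male wannabes passed (-0.90, adjusted p = 0.0298). In females *Tsc1* fell from 33.7, 34.7 and 37.0 CPM in resting to 26.1 and 26.6 CPM in activated wannabes (log2 fold change -0.42, SE 0.10, edgeR adjusted p = 0.0338). This call was lost without resting wannabe replicate 1 (adjusted p = 0.0732) or 3 (0.0550) and without activated wannabe replicate 1 (0.176) or 2 (0.196), with no filter (0.0507) and with the replicate number as a block (0.0960).

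*Rheb*, the GTPase that activates mTORC1 and that the TSC complex turns off, was lowest in the male wannabes. It stood at 83.5, 93.0 and 106 CPM in control Treg cells and 79.9, 122 and 127 CPM in rescued Treg cells, and at 31.5 and 36.6 CPM in male wannabes. The lowest Treg library thus lay above both male wannabe libraries by more than the whole range within the wannabes. *Rheb* was 2.77-fold higher in control Treg cells (log2 fold change 1.47, SE 0.24, edgeR adjusted p = 0.00269) and 3.22-fold higher in rescued Treg cells (1.69, SE 0.24, adjusted p = 0.000988) than in male wannabes. Both held with each library left out in turn, with adjusted p-values of at most 0.0171. In females it stood at 112, 115 and 115 CPM in resting and 93.9 and 95 CPM in activated wannabes. This fall was small (log2 fold change -0.27, SE 0.07, adjusted p = 0.0404) and was lost without any 1 of the 5 female libraries, with adjusted p-values of 0.0510 without resting wannabe replicate 2 up to 0.214 without activated wannabe replicate 2. It was lost also with no filter (0.0640) and with the replicate number as a block (0.113).

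Taken per kilobase, the balance of *Rheb* and *Tsc2* separated the male wannabes from the other 4 groups. Among the males this follows from the opposite changes of the 2 genes given above and is no separate result. The log2 of *Rheb* over *Tsc2* was 0.77 ± 0.48 in control Treg cells, 0.77 ± 0.61 in rescued Treg cells and 0.76 ± 0.11 in resting wannabes (SD, n = 3 each). It was 0.76 ± 0.07 in activated wannabes and -1.70 ± 0.45 in male wannabes (SD, n = 2 each). The male wannabe libraries, at -2.02 and -1.38, lay below the lowest of the other 11, rescued Treg replicate 3 at 0.09. The activated wannabes of the female experiment had the same mean as the resting ones. The zero of this scale depends on the gene lengths used, and differences between groups do not.

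*Depdc5* encodes a subunit of GATOR1, the brake on the Rag GTPases. It stood at 45.8, 48.4 and 51.4 CPM in control Treg cells, 27.9, 41.9 and 44.1 CPM in rescued Treg cells and 23.3 and 44.0 CPM in male wannabes. Every control Treg library lay above every other male library, but neither difference passed. The log2 fold change was -0.35 in rescued against control Treg cells (SE 0.27, edgeR adjusted p = 0.596) and 0.53 in control Treg cells against male wannabes (SE 0.30, adjusted p = 0.261). In females it stood at 34.1 to 35.8 CPM in resting and at 28.9 and 35.3 CPM in activated wannabes (log2 fold change -0.13, SE 0.12, adjusted p = 0.475).

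Of the complex itself, neither subunit listed passed the threshold in edgeR with all libraries. *Mtor*, the kinase, stood between 38.4 and 61.7 CPM over the male and between 35.9 and 42.8 CPM over the female libraries. Its log2 fold change between activated and resting wannabes was -0.14 (SE 0.11, edgeR adjusted p = 0.386). *Rptor*, which encodes Raptor, the subunit that recruits substrates, stood at 66.5, 82.7 and 91.3 CPM in control Treg cells, 50.3, 54.2 and 72.4 CPM in rescued Treg cells and 49.4 and 64.3 CPM in male wannabes. The control and rescued Treg cells overlapped (log2 fold change -0.44, SE 0.21, adjusted p = 0.328). In females *Rptor* stood at 40.8, 46.6 and 49.0 CPM in resting and 30.8 and 36.1 CPM in activated wannabes. That change, -0.44 (SE 0.13), missed the threshold in edgeR (adjusted p = 0.0511) and passed it in DESeq2 (0.0197) and without resting wannabe replicate 2 (0.0323). *Rptor* shares 84 exonic bases with its antisense gene *Rptoros*.

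**Figure D3:**
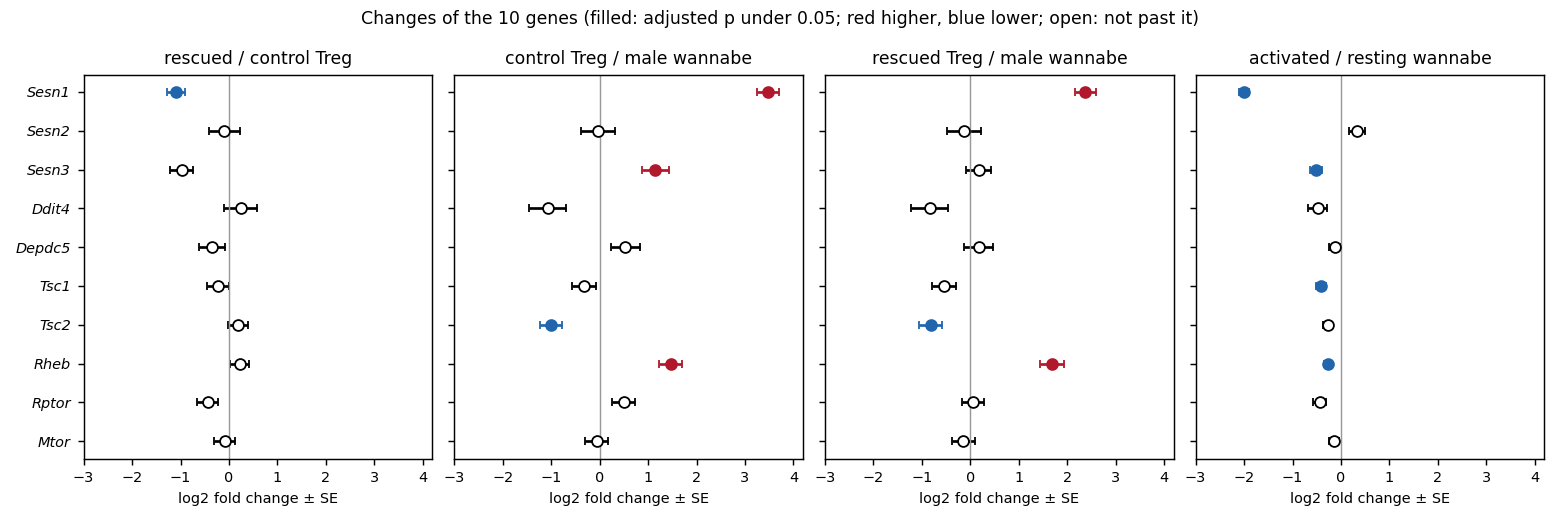
Log2 fold change (x axis) of each gene in the 4 comparisons, with bars of 1 SE from edgeR. Filled points passed an adjusted p of 0.05, red higher and blue lower in the group named first. *Sesn1* passed in all 4, from -2.0 to 3.48, while *Sesn2*, *Ddit4*, *Depdc5*, *Rptor* and *Mtor* passed in none.

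Counted over the 10 genes, 3 rose (*Sesn1*, *Sesn3* and *Rheb*) and 1 fell (*Tsc2*) in control Treg cells against male wannabes, where 16.2% of all genes tested passed (9.92% higher and 6.27% lower). In rescued Treg cells against male wannabes 2 were higher (*Sesn1* and *Rheb*) and 1 lower (*Tsc2*), and 14.1% of all genes passed (10.0% higher and 4.06% lower). In activated against resting wannabes 4 were lower (*Sesn1*, *Sesn3*, *Tsc1* and *Rheb*) and none higher, and 22.5% of all 13166 genes passed (11.3% higher and 11.2% lower). There, 8 of the 10 had every activated library below every resting one, as did 28.6% of all genes, and only *Sesn2* had every activated library above, as did 27.9% of all genes (56.5% in either direction). The libraries of the groups compared did not overlap for 3 of the 10 between rescued and control Treg cells (24.2% of all genes), for 7 between control Treg cells and male wannabes (46.1%) and for 4 between rescued Treg cells and male wannabes (42.7%). The median log2 fold change of the 10 genes was -0.34 in activated against resting wannabes, beside -0.01 over all genes. It was -0.16 in rescued against control Treg cells (all genes -0.03), 0.23 in control Treg cells against male wannabes (0.09) and -0.04 in rescued Treg cells against male wannabes (0). As these counts were known when the genes were listed, nothing is read from them against the background.

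Levels can be compared between genes only per kilobase of exon. On that scale *Sesn1* ranked first in control Treg cells at 90.7 ± 10.4 CPM per kb (SD, n = 3), well above *Ddit4* at 23.6 ± 6.43. In rescued Treg cells *Sesn1* (42.4 ± 9.42) and *Ddit4* (27.9 ± 11.6) lay within the sum of their SDs, as they did in resting wannabes at 63.6 ± 6.32 and 50.3 ± 11.7 (SD, n = 3 each). In activated wannabes *Ddit4* ranked first (36.0 ± 1.22) and *Sesn1* second (15.9 ± 0.829), and in male wannabes *Ddit4* (49.8 ± 26.1), *Tsc2* (14.5 ± 2.99) and then *Sesn1* (8.15 ± 0.779; SD, n = 2 each). *Rheb* ranked 3 of 10 in each group but the male wannabes, where it ranked 7 of 10. Of the 45 pairs of neighbours in the 5 orders, 27 differed by no more than the sum of their SDs, mostly among *Sesn2*, *Rptor*, *Mtor*, *Tsc1* and *Depdc5*. The order depends on the length used. With the mean length of protein-coding transcripts, 1784 bases for *Rheb* in place of 7721, *Rheb* came first in rescued Treg cells and in activated wannabes, while *Sesn1* stayed first in control Treg cells and resting wannabes and *Ddit4* in male wannabes.

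Whether the change from control to rescued Treg cells differed from the change from resting to activated wannabes was tested as a difference of log2 fold changes over all 13 libraries. None of the 10 genes passed in edgeR, where 1.53% of 15201 genes did, 1 had an unadjusted p under 0.05 (13.8% of all genes), and DESeq2 called 1. That gene was *Sesn1*, at 0.92 (SE 0.24, edgeR adjusted p = 0.0863; DESeq2 0.90, adjusted p = 0.0194), as its fall was larger in wannabes than in Treg cells. Without rescued Treg replicate 1 the edgeR value was 1.05 (adjusted p = 0.0347). The other 9 differences lay between -0.45 and 0.74, with SEs of 0.24 to 0.49.

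The rest of the pathway was described with a list of 72 other genes, of which 70 were tested in males and 69 in females. *Prkaa2* and *Ddit4l* were left out by the filter in both, and *Grb10* in females. In rescued against control Treg cells 1 of 70 rose and none fell in edgeR (13 had an unadjusted p under 0.05, as did 16.1% of all genes, and DESeq2 called 5). That gene was *Hif1a*, the hypoxia-inducible factor known to induce *Ddit4*, at 291, 320 and 349 CPM in control and 569, 579 and 613 CPM in rescued Treg cells (log2 fold change 0.88, SE 0.15, adjusted p = 0.0140). The call was lost without control Treg replicate 2 or 3 (adjusted p of at most 0.0773). The median of the list was -0.01, beside -0.03 over all genes.

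In control Treg cells against male wannabes 12 of the 70 rose and 4 fell (9.92% and 6.27% of all genes did), and the median was -0.09 beside 0.09 over all genes. Of 6 transcription factors known to act on Sestrin or *Ddit4* genes, 4 were higher. They were *Hif1a* (log2 fold change 2.00, SE 0.18, edgeR adjusted p = 0.000209), *Foxo1* (1.30, SE 0.21, adjusted p = 0.00250), *Foxo3* and the glucocorticoid receptor *Nr3c1*. *Foxo1*, whose product drives *Sesn1* and *Sesn3* in other cells, stood at 164, 200 and 206 CPM in control Treg cells and 71.2 and 83.5 CPM in male wannabes. In females it stood at 142 ± 80.8 CPM (SD, n = 3) in resting and 206 ± 31.6 CPM (SD, n = 2) in activated wannabes, which overlapped. The part of these factors in the changes of the 10 genes was not tested. Among the nutrient sensors, all 3 passed, *Gatsl2* (the arginine sensor family member CASTOR2; 1.59) and *Bmt2* (SAMTOR, the S-adenosylmethionine sensor; 1.54) higher and *Gatsl3* (CASTOR1; -1.06) lower. The Rag GTPases *Rragc* (1.67) and *Rraga* (1.02), the mTORC1 inhibitor *Akt1s1* (PRAS40; 1.27), the Pol III repressor *Maf1* (1.45) and the mTORC2 subunit *Mapkap1* (0.90) were higher. The mTORC2 partner *Prr5l* (-1.75), the GATOR2 subunit *Sec13* (-0.52) and the AMPK subunit *Prkag1* (-0.55) were lower. Of the 16 calls, 6 held with each library left out in turn, among them *Foxo1*, *Gatsl3*, *Hif1a*, *Maf1* and *Rragc*. *Gatsl2* and *Mapkap1* were lost without male wannabe replicate 1 (adjusted p = 0.0676 and 0.0599) and *Akt1s1* and *Rraga* without male wannabe replicate 2 (0.0566 and 0.0695), and the other 6 without each of several. *Bmt2* was lost without control Treg replicate 1 or 3 or male wannabe replicate 2 (adjusted p up to 0.144), *Nr3c1* without control Treg replicate 1 or 2 or male wannabe replicate 2 (0.118) and *Prr5l* without any control Treg library or male wannabe replicate 2 (0.138). *Foxo3* and *Prkag1* were lost without any control Treg library, male wannabe replicate 1 or rescued Treg replicate 2 (adjusted p up to 0.221 and 0.122), and *Sec13* without any male library but rescued Treg replicate 3 (0.146).

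In rescued Treg cells against male wannabes 13 of the 70 were higher and 3 lower (10.0% and 4.06% of all genes were), with a median of -0.03 beside 0 over all genes. Among those past the threshold, *Hif1a* had the largest rise (log2 fold change 2.87, SE 0.19, edgeR adjusted p = 6.25e-05), from 67.9 and 92.5 CPM in male wannabes. *Rragc*, which encodes the Rag GTPase that partners RagA or RagB, stood at 80.2, 84.7 and 153 CPM in rescued Treg cells and 14.0 and 16.2 CPM in male wannabes (2.81, SE 0.33, adjusted p = 0.000400). *Maf1* (1.64), *Akt1s1* (1.53), *Bmt2* (1.51), *Tfeb* (1.12), *Eif4ebp2* (0.96), *Mios* (0.94), *Nr3c1* (0.85), *Foxo1* (0.76) and *Mapkap1* (0.74) were among the others that were higher. *Prr5l* (-2.75), *Pik3cd* (-0.84) and *Mlst8* (-0.67) were lower. Of these 16 calls, 5 held with each library left out in turn (*Akt1s1*, *Hif1a*, *Maf1*, *Prr5l* and *Rragc*). *Tfeb* was lost without male wannabe replicate 1 (adjusted p = 0.0509) and *Nr3c1* without male wannabe replicate 2 (0.0776), and the other 9 without each of several. *Eif4ebp2* was lost without either male wannabe library or rescued Treg replicate 1 (adjusted p up to 0.104), *Pik3cd* without male wannabe replicate 2 or rescued Treg replicate 1 or 2 (0.139) and *Foxo1* without control Treg replicate 3, male wannabe replicate 2 or rescued Treg replicate 1 or 3 (0.156). *Bmt2* was lost without control Treg replicate 1 or 3, male wannabe replicate 2 or rescued Treg replicate 1 or 3 (adjusted p up to 0.165), and *Mios* without control Treg replicate 2 or 3, male wannabe replicate 2 or rescued Treg replicate 1 or 2 (0.243). *Mapkap1* was lost without any male library but male wannabe replicate 2 (adjusted p up to 0.166), and *Mlst8* without any of the 8 (0.192).

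In activated against resting wannabes 5 of the 69 were higher and 12 lower (11.3% and 11.2% of all genes were), with a median of -0.02 beside -0.01 over all genes. Among those past the threshold, *Prr5l* had the largest fall, from 81.0, 110 and 156 CPM in resting to 20.0 and 26.4 CPM in activated wannabes (log2 fold change -2.32, SE 0.30, edgeR adjusted p = 0.00352). *Gatsl3*, the arginine sensor CASTOR1, rose from 32.5, 33.6 and 34.1 CPM to 65.4 and 69.7 CPM (1.01, SE 0.09, adjusted p = 0.000937), while its relative *Gatsl2* fell (-1.17, SE 0.23, adjusted p = 0.0152). *Nr3c1* fell (-0.76, SE 0.09, adjusted p = 0.00216), as did *Atf4* (-0.40), and *Hif1a*, *Foxo1*, *Foxo3* and *Trp53* did not pass. Of the growth factor branch, *Pik3ip1* (-0.82) and *Pik3r1* (-0.65) were lower and *Akt1* (0.69) higher. The AMPK subunits *Prkab2* (-1.16) and *Prkaa1* (-0.39), *Rictor* (-0.37), *Flcn* (-0.42) and *Maf1* (-0.32) were lower, and *Tbc1d7*, the further subunit of the TSC complex (1.41), *Fnip2* (2.24, at no more than 1.40 CPM in any female library) and *Nprl3* (0.33) were higher. Only *Gatsl3*, *Nr3c1* and *Prr5l* of these 17 held with each library left out in turn. *Tbc1d7* was lost without activated wannabe replicate 2 (adjusted p = 0.103) and the other 13 without either activated wannabe library. *Pik3ip1*, *Fnip2*, *Nprl3* and *Prkaa1* were lost also without resting wannabe replicate 1, *Prkaa1* without replicate 2, and *Akt1*, *Maf1*, *Fnip2*, *Nprl3* and *Prkaa1* without replicate 3. The highest adjusted p of each gene named lay between 0.0784 (*Prkab2*) and 0.265 (*Fnip2*).

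**Figure D4:**
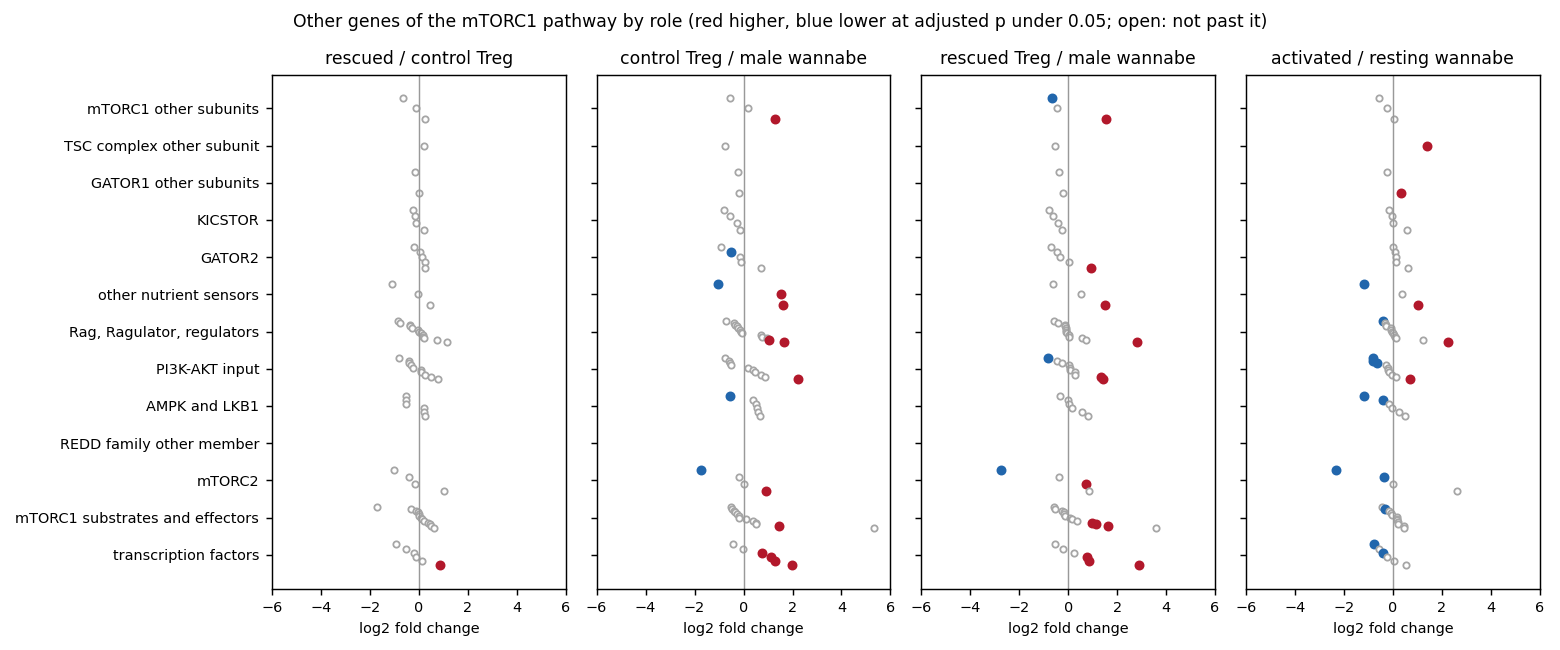
Log2 fold change (x axis) of the other mTORC1 pathway genes tested, 1 point per gene, by role (y axis) in the 4 comparisons. Red and blue points passed an edgeR adjusted p of 0.05, higher and lower in the group named first. 1 of 70 genes passed between rescued and control Treg cells, 16 of 70 in each comparison with male wannabes and 17 of 69 between activated and resting wannabes.

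The genes whose pattern lay nearest to that of each Sestrin were found over the 13 libraries among 10315 genes with a mean of at least 3 CPM in both experiments. The measure was the root mean square difference of log2 CPM, with each gene centred on its mean within the experiment. For *Sesn1* the 5 nearest included *Mcoln3* (0.37), *2510009E07Rik* (0.44), *Cd38* (0.51) and *March3* (0.52), against a median of 1.26 over all genes. *Cd38*, which encodes an NAD-consuming surface enzyme, had means of 47.3, 19.5 and 9.51 CPM in control Treg cells, rescued Treg cells and male wannabes and 66.4 and 19.8 CPM in resting and activated wannabes. For *Sesn3* the nearest were *Tle4* (0.16), *Ric8b* (0.17), *Ssbp2* (0.17), *Pfkfb2* (0.18) and *Usp34* (0.18), with a median over all genes of 0.55. For *Sesn2* they were *Helb* (0.18), *Stx18* (0.18), *Heatr5a* (0.19), *Myo1e* (0.19) and *Nlrc5* (0.20), with a median of 0.45, closer than the *Sesn2* libraries lay to their own group means (0.29). The nearest gene of *Sesn1* lay further from it than the libraries of *Sesn1* lay from their group means (0.16).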

How the data were processed

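Bulk RNA-seq libraries of sorted T cells were analyzed in 13 samples, grouped by their titles and genotypes. According to the study's methods, cells were sorted as Thy1.1- GFP+ (Treg) or Thy1.1+ GFP- (wannabe) CD4 T cells, and small amounts of RNA went through SMART-Seq amplification before sequencing. Alignment by the authors used STAR 2.7.3a and GRCm38, followed by local realignment (GATK) and counting in R, and the deposited values are raw counts for each gene. The annotation and the strand setting are not given in the sources used here. The series text gives 3 activated and 2 resting female samples, whereas titles, genotypes and methods give the reverse, which was followed. Table columns were matched to groups by genotype and sort gate.

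Of 24421 rows, 4 without a gene name were left out (at most 0.00841% of a library). Counts were tested in R 4.3.3 with edgeR 4.0.16 (TMM, filterByExpr, quasi-likelihood F test, Benjamini-Hochberg over all genes tested, threshold 0.05), fitting the 8 male libraries together, the 5 female libraries together, and all 13 for the difference of changes. DESeq2 1.42.0, DESeq2's size factors, no filter, the replicate number as a block, only the groups compared, and leaving out each library were the alternatives. Biological coefficients of variation (common) came to 0.510 for male and 0.171 for female libraries. The scripts were tested on simulated data. Gene lengths come from GENCODE M21 (GRCm38), to which all 82 listed genes were matched, and promoters from RefSeq. Transcripts of other genes were aligned to each member's longest coding transcript, and only *Pkd1*, which overlaps *Tsc2*, matched over 200 bases or more at 90% identity or more (693 bases). The reads carry no molecular identifiers.

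The 10 members, the 72 pathway genes, the marker lists and the tests were chosen with earlier results of these data known. All members are named, and of the pathway list those past the threshold, at most 4 per role and comparison by size of change, with values for others given where they bear on a member. For each Sestrin the 5 nearest genes are named. A few genes that these rules would name are not reported here, and the counts include them.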

Additional observations from a re-analysis of the deposited data

Results flagged for a closer look

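*Hif1a* was the only gene of the pathway list whose change between rescued and control Treg cells differed, by the test of the difference itself, from its change between activated and resting wannabes. The difference was 0.86 on the log2 scale (SE 0.18, edgeR adjusted p = 0.0359). *Hif1a* was higher in all 3 rescued Treg libraries than in all 3 control Treg libraries (587 ± 23.3 against 320 ± 28.7 CPM; SD, n = 3 each). In females it stood at 873 ± 72.4 CPM (SD, n = 3) in resting and 889 ± 49.1 CPM (SD, n = 2) in activated wannabes, which overlapped. The difference was called in 4 of 13 fits that each left out 1 library, with values between 0.81 and 0.93 and adjusted p-values from 0.00925 to 0.253. The experiments differ in sex, age and treatment, which cannot be told apart from the populations. *Ddit4*, a known HIF-1 target, had a difference of changes of 0.74 (SE 0.49, adjusted p = 0.582).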

How the results depend on the processing

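The common limits are few libraries per group (2 or 3), scattered male replicates and, for the female falls of *Sesn3*, *Tsc1* and *Rheb*, adjusted p-values near 0.05. With DESeq2's size factors all 50 fold changes of the 10 genes and all 15 counts kept their side of the threshold or stayed within 1.5 times. These size factors moved the median log2 fold change of all genes by -0.04 to 0.02. With CPM by total count without TMM, 49 of 50 group means of the 10 genes moved by less than 1 SD, the exception being *Mtor* in rescued Treg cells (47.8 CPM, against 48.7 ± 0.512 CPM with TMM; SD, n = 3).

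With DESeq2's test, 1195, 3751, 3316 and 792 genes were called in rescued against control Treg cells, control and rescued Treg cells against male wannabes and the difference of changes, against 343, 2416, 2105 and 233 in edgeR. Members called became 2 and 1 in the first and last of these, and pathway genes 5 and 4. Without the filter, 612 genes, 2 members and 2 pathway genes were called in rescued against control Treg cells, 2 members in activated against resting wannabes (*Tsc1* and *Rheb* were lost, adjusted p = 0.0507 and 0.0640) and 2 pathway genes in the difference. *Ddit4* then passed in control Treg cells against male wannabes (adjusted p = 0.0307). In fits of only the groups compared, 580 genes, 2 members and 3 pathway genes were called in rescued against control Treg cells, and 7 pathway genes in rescued Treg cells against male wannabes, where *Tsc2* was lost (adjusted p = 0.0592). The cause of these changes was not tested.

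Libraries that shared a replicate number had correlations of deviations from the group means of -0.03 to 0.08 in males and -0.03 to -0.02 in females. For different numbers these were -0.13 to 0.07 and -0.01 to 0.03, and 3 of 6 control and rescued Treg libraries correlated best with their own number. Whether the numbers pair the libraries cannot be told from this, as deviations mirror each other in groups of 2 libraries. With the number as a replicate block, 2 pathway genes were called in rescued against control Treg cells and 2 in the difference, and 1 member, *Sesn1*, in activated against resting wannabes. *Rptor* changed sign in rescued Treg cells against male wannabes (-0.093, adjusted p = 0.845) and in the difference (-0.055, adjusted p = 0.990). *Ddit4* passed against male wannabes in both comparisons (adjusted p = 0.0177 and 0.0411).

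Leaving out each library in turn gave 114 to 598 genes, 0 to 2 members and 0 to 3 pathway genes in rescued against control Treg cells, fewest genes without control Treg replicate 1 and most without male wannabe replicate 1. It gave 1549 to 2423, 2 to 4 and 10 to 17 in control Treg cells against male wannabes, and 1570 to 1959, 2 to 5 and 8 to 15 in rescued Treg cells against male wannabes. It gave 751 to 3215, 1 to 6 and 3 to 20 in activated against resting wannabes, fewest genes without activated wannabe replicate 1 and most without resting wannabe replicate 2, and 44 to 430, 0 to 1 and 0 to 3 for the difference. Where a group was left with 1 library, that library was assumed to vary like the others. Signs changed only for values that had not passed. In rescued against control Treg cells these were *Sesn2* (-0.29 to 0.14), *Ddit4* (-0.16 to 0.48) and *Mtor* (-0.27 to 0.053). In control Treg cells against male wannabes they were *Sesn2* (-0.28 to 0.18), *Tsc1* (-0.67 to 0.10) and *Mtor* (-0.24 to 0.12). In rescued Treg cells against male wannabes they were *Depdc5* (-0.22 to 0.66), *Sesn2* (-0.37 to 0.10), *Rptor* (-0.17 to 0.25) and *Mtor* (-0.32 to 0.0049). In activated against resting wannabes it was *Depdc5* (-0.29 to 0.0050), and in the difference *Rptor* (-0.14 to 0.13) and *Mtor* (-0.12 to 0.23).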
